A study of Homo sapiens with 6 samples.

Results

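The SLC25 genes encode the mitochondrial carriers, and their mRNA levels were compared between RKO cells with and without ANP32B knockdown. Members were taken by symbol alone, as every gene whose name is SLC25A followed by a number. This gave 48 of the 61204 entries of each sample, and 38 of the 48 had a mean of at least 1 FPKM over the 6 samples (fragments per kilobase of gene length, scaled to library size) and were tested. RKO cells are an established line from a human colorectal carcinoma. The 3 siCtrl samples are ANP32B wild type cells that received a negative control siRNA, and the 3 siANP32B samples received an siRNA against ANP32B, at an equal amount. The sources used here do not say which ANP32B siRNA sequence these samples received, knockdown is transient and partial, and RKO stands for a single tumor. No source tells whether replicates were grown separately, so p-values reflect only sample-to-sample spread, which may be technical.

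Mitochondrial carriers are small proteins of the inner mitochondrial membrane that exchange metabolites between the cytosol and the matrix. Most work by alternating between a state open to either side, so that one substrate enters as another leaves. Different members carry ADP and ATP, phosphate, iron, citrate and other carboxylates, amino acids, and cofactors such as coenzyme A, NAD+ and glutathione. A few sit outside the inner membrane, such as SLC25A17 in peroxisomes and SLC25A46 in the outer mitochondrial membrane.

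ANP32B itself was at 429, 466 and 452 FPKM in siCtrl and at 72.5, 53.9 and 75.3 FPKM in siANP32B, and so fell by 85.0%. Taken as FPKM, the values of the 6 samples gave depths of 14304093 to 18987041 fragments. Of 8 colorectal epithelial markers, EPCAM, KRT8, KRT18 and CDX2 were above 1 FPKM, while CDH1, KRT19, VIL1 and LGALS4 were not. The summed level of 4 immune markers was 0.0801 to 0.341 FPKM in siCtrl and 0.583 to 1.17 FPKM in siANP32B, with PTPRC and CD3E at 0. In siANP32B it came mostly from CD68, at 0.641, 1.17 and 0.499 FPKM, against 0.341, 0.113 and 0 FPKM in siCtrl. The summed level of 4 fibroblast markers was 2.83 to 4.19 and 1.28 to 2.06 FPKM, mostly from COL1A1 and with DCN at 0. For 3 endothelial markers it was 0.672 to 1.02 and 0.284 to 0.470 FPKM. Their part in the carrier results was not tested.

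The carriers differed widely in level. SLC25A6, an ADP/ATP carrier, was the highest with a mean of 694 FPKM over the 6 samples, followed by the phosphate carrier SLC25A3 at 254, the glutathione carrier SLC25A39 at 222, the ADP/ATP carrier SLC25A5 at 216 and the glutamate carrier SLC25A22 at 126 FPKM. These 5 genes held 61.0% of the summed mean level of all 48 members. SLC25A3, SLC25A39 and SLC25A5 lay close together, and their order changed between the groups: in siCtrl, SLC25A39 overlapped SLC25A3 and all its values were above those of SLC25A5, while in siANP32B all its values were below those of both. The median of the 38 tested members was 22.2 FPKM, and the lowest, SLC25A21, was at 1.02 FPKM. The summed FPKM of all 48 members was 2217, 2310 and 2268 in siCtrl and 2634, 2730 and 2709 in siANP32B, without overlap of the groups. SLC25A6 alone made up 23.8% to 25.4% of this sum in siCtrl and 30.04% to 31.8% in siANP32B, and SLC25A22 and SLC25A5 were the next largest contributors to the difference.

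**Figure D1:**
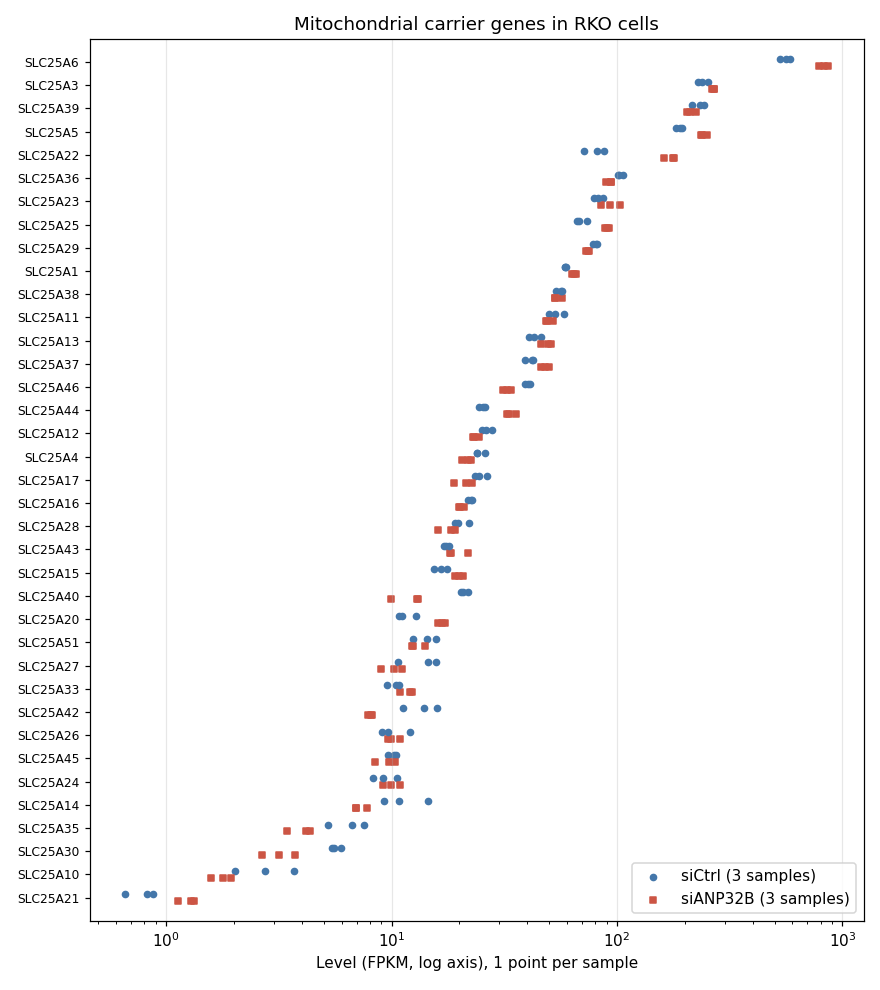
Level of 37 of the 38 tested mitochondrial carrier genes in each sample, in FPKM on a log axis, ordered by their mean (circles: 3 siCtrl samples, squares: 3 siANP32B samples). SLC25A6 stands above the others at 529 to 867 FPKM, and the siANP32B points of SLC25A22 lie clearly to the right of its siCtrl points.

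After ANP32B knockdown the family moved in both directions. Of the 38 tested members, 10 were higher and 8 lower in siANP32B at an adjusted p under 0.05 (limma, Benjamini-Hochberg over the 13945 genes tested), and 20 were not called. Among all tested genes 39.2% were called, 14.6% as higher and 24.6% as lower, against 47.4%, 26.3% and 21.1% of the carriers. The median log2 fold change of the carriers was -0.06, the same as that of all tested genes at this rounding. In all 18 called members the siANP32B samples lay outside the range of the siCtrl samples. Called genes without overlap made up 14.3% (higher) and 24.4% (lower) of all tested genes. They were 2000 of the 2031 genes called higher and 3405 of the 3437 called lower. The call thus nearly fixes the separation, which adds no further evidence for the carriers. Counted without regard to the call, 14 of the 38 carriers had all siANP32B samples above and 14 all below the siCtrl samples. Among the 13945 tested genes, these were 2689 (19.3%) and 4432 (31.8%). The 14 above include SLC25A21, which passed the limit of 1 FPKM only through its siANP32B samples. Groups without overlap give p = 0.10 in an exact two-sided permutation test, the smallest p that 3 samples against 3 allow. With median-of-ratios scaling of the FPKM values, 13 members were higher and 6 lower, against 2690 and 2560 of the 13945 tested genes. The share of higher genes among all calls went from 37.1% to 51.2%. In bulk samples like these, a change in RNA per cell and a change in the share of cells that express a gene cannot be told apart.

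**Figure D2:**
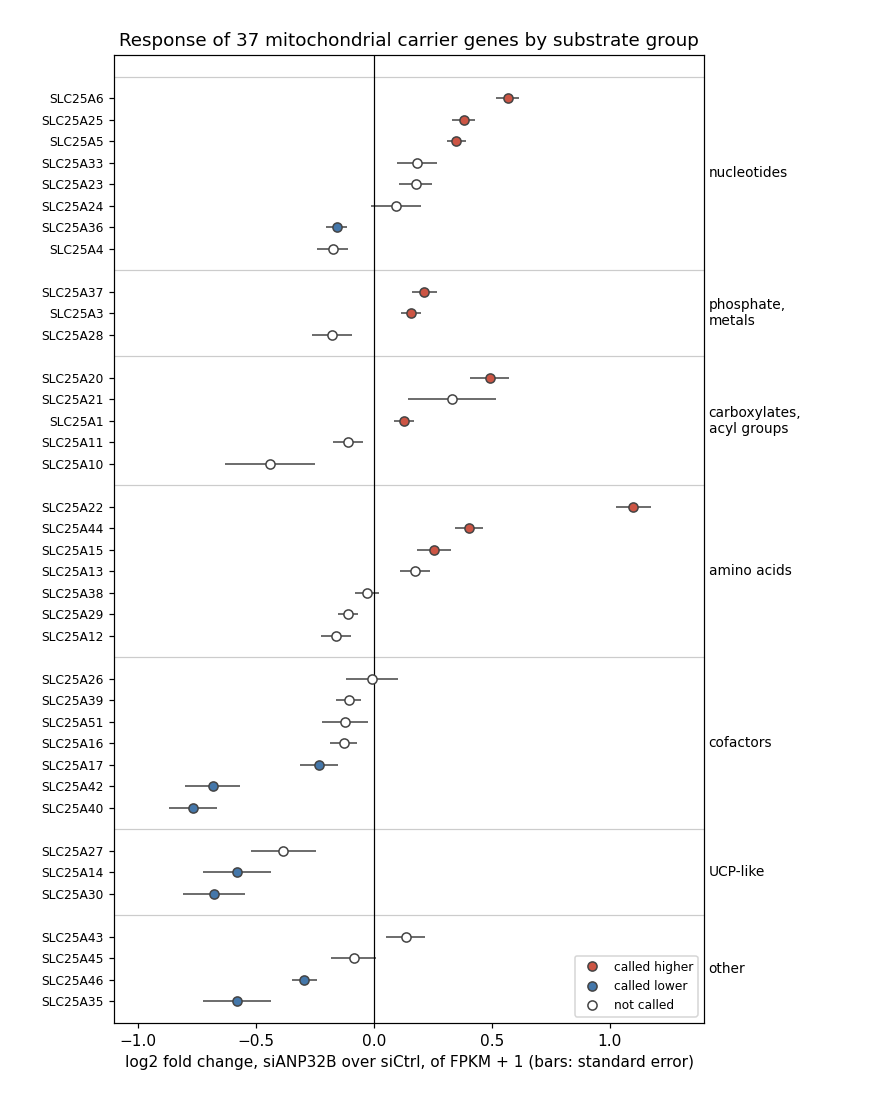
Log2 fold change of FPKM + 1 between siANP32B and siCtrl for 37 of the 38 tested carriers, grouped by substrate, with the standard error as bars (filled: called at an adjusted p under 0.05 from limma). Calls among carriers of amino acids, carboxylates, phosphate and metals are all to the right of 0, and those among cofactor carriers and the relatives of uncoupling proteins all to the left. These groups hold only 2 or 3 calls each. Without a call, SLC25A10, SLC25A11, SLC25A12, SLC25A28, SLC25A29 and SLC25A38 lie to the left of 0, with SLC25A10 at -0.44.

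Among the carriers of nucleotides, 3 of 8 tested members rose and 1 fell. The ADP/ATP carriers export the ATP made by oxidative phosphorylation in exchange for cytosolic ADP. SLC25A6 (ENSG00000169100), in the pseudoautosomal region at 1386152 to 1392724 on the reverse strand of chromosome X in GRCh38, was at 529, 587 and 563 FPKM in siCtrl and at 791, 867 and 829 FPKM in siANP32B. Every siANP32B sample was well above every siCtrl sample, and the gene rose 1.48-fold (log2 fold change 0.57, standard error 0.05, adjusted p = 3.78e-05). SLC25A5 was at 183, 195 and 191 FPKM in siCtrl and at 238, 251 and 237 FPKM in siANP32B. It rose 1.28-fold (log2 fold change 0.35, standard error 0.04, adjusted p = 2.01e-04), again with a gap between the groups that was wider than either group's range. SLC25A4, the form known from heart and skeletal muscle, had a mean of 24.6 ± 1.11 FPKM in siCtrl against 21.7 ± 1.08 FPKM after knockdown (± SD of 3 samples, as throughout) and was not called (adjusted p = 0.0607). Summed over these 3 genes, the level was 738, 805 and 778 FPKM in siCtrl and 1052, 1140 and 1087 FPKM in siANP32B. SLC25A6 made up 71.7% to 72.8% of that sum in siCtrl and 75.2% to 76.3% in siANP32B.
The ATP-Mg/phosphate carriers adjust the matrix content of adenine nucleotides and are activated by calcium. SLC25A25 was at 68.0, 73.5 and 66.5 FPKM in siCtrl and at 91.9, 88.8 and 90.8 FPKM in siANP32B. Without overlap of the groups, it rose 1.31-fold (log2 fold change 0.38, standard error 0.05, adjusted p = 3.34e-04). Its relatives SLC25A23 (82.6 ± 3.75 and 93.8 ± 9.15 FPKM) and SLC25A24 (log2 fold change 0.09) were not called, with adjusted p-values of 0.0728 and 0.529. SLC25A23 was called higher in 5 of 14 alternatives, among them median-of-ratios scaling (log2 fold change 0.25, adjusted p = 0.0159) and the replicate block (adjusted p = 0.0400), while without siANP32B replicate 3 its log2 fold change was 0.11. Of the pyrimidine nucleotide carriers, which supply mitochondrial DNA and RNA synthesis, SLC25A36 fell from 103 ± 3.35 to 92.3 ± 2.77 FPKM (log2 fold change -0.16, adjusted p = 0.0195), and SLC25A33 was at 10.3 ± 0.640 and 11.8 ± 0.721 FPKM (log2 fold change 0.18, adjusted p = 0.122). SLC25A36 was called in 8 of 14 alternatives. Its call was lost, among others, with median-of-ratios scaling, where its log2 fold change was -0.09, with upper-quartile scaling and without the trend. It was also lost when siCtrl replicate 1 (log2 fold change -0.13) or siANP32B replicate 3 (-0.13) was left out. SLC25A33 was called higher with median-of-ratios scaling, at a log2 fold change of 0.25.

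SLC25A3 imports the phosphate needed for ATP synthesis and also carries copper. It was at 238, 253 and 230 FPKM in siCtrl and at 269, 265 and 269 FPKM in siANP32B. The rise was small (1.11-fold, log2 fold change 0.16, standard error 0.04, adjusted p = 0.0170). The gap between the highest siCtrl and the lowest siANP32B sample was narrower than the range of the siCtrl samples. Without siCtrl replicate 3, the lowest of them, the log2 fold change was 0.12 and the call was lost (adjusted p = 0.0703). The call was also lost by limma without the trend (adjusted p = 0.0790) and without the filter (adjusted p = 0.0549). The mitoferrins bring iron into the matrix for heme and iron-sulfur cluster synthesis. Mitoferrin 1, SLC25A37, rose from 41.2 ± 1.90 to 48.0 ± 1.74 FPKM (log2 fold change 0.21, adjusted p = 0.0127), but was not called with siCtrl replicate 1 as the only control (log2 fold change 0.17). Mitoferrin 2, SLC25A28, was at 20.3 ± 1.55 and 17.9 ± 1.56 FPKM and was not called.

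Of 5 carriers of carboxylates and acyl groups, 2 rose and none fell by limma, with 1, SLC25A10, lower at an unadjusted p under 0.05. SLC25A20 carries acylcarnitines into the matrix, where their fatty acids are oxidized, and was at 11.2, 10.8 and 12.8 FPKM in siCtrl and at 17.3, 16.7 and 16.01 FPKM in siANP32B. It rose 1.44-fold without overlap of the groups (log2 fold change 0.49, standard error 0.08, adjusted p = 0.00162). The citrate carrier SLC25A1, which exports citrate for fatty acid and sterol synthesis, was at 59.1 ± 0.334 and 64.7 ± 1.21 FPKM (log2 fold change 0.13, adjusted p = 0.0379). This call was lost in 9 of 14 alternative analyses, among them the omission of each sample in turn, with log2 fold changes of 0.11 to 0.14 and adjusted p-values of 0.0556 to 0.115 for those 6 fits. The 2-oxoglutarate/malate carrier SLC25A11 was at 53.8 ± 4.24 and 49.7 ± 2.02 FPKM and was not called. RNF167 shares exon sequence with SLC25A11 on the opposite strand and fell from 104 ± 4.20 to 69.4 ± 7.12 FPKM. The sources used here do not state whether reads were counted by strand, so reads of overlapping genes may have been mixed. In all, 9 tested carriers share exon sequence with a gene of at least 1 FPKM. Of these partners, NAIF1 (SLC25A25), TPT1-AS1 (SLC25A30), METAP1D (SLC25A12) and SLC25A5-AS1 (SLC25A5) were not called, with log2 fold changes of -0.24, 0.21, 0.28 and 0.09, and the partners called lower are given with their carriers.
The other 2 carriers of this group were close to the limit of 1 FPKM. The dicarboxylate carrier SLC25A10 had 2.02, 2.73 and 3.70 FPKM in siCtrl against 1.94, 1.59 and 1.79 FPKM in siANP32B (adjusted p = 0.0962), and it was called lower when siCtrl replicate 1, the lowest control, was left out (log2 fold change -0.60, adjusted p = 0.0405). Without siCtrl replicate 3, the highest control, its log2 fold change was -0.28 (adjusted p = 0.303), and against siCtrl replicate 1 alone it was -0.12. SLC25A21, the oxodicarboxylate carrier, was at 0.658, 0.873 and 0.822 FPKM in siCtrl and at 1.29, 1.33 and 1.12 FPKM in siANP32B. It passed the limit of 1 FPKM only through the siANP32B samples and was not called (adjusted p = 0.192). Among the alternatives, only limma without the trend called it higher (adjusted p = 0.0158). Its values allow as few as 16 fragments in a sample. PAX9, which overlaps SLC25A21 on the opposite strand, fell from 12.1 ± 1.53 to 7.89 ± 0.468 FPKM.

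The amino acid carriers held the largest rise of the 38 tested members. SLC25A22 (ENSG00000177542), which brings glutamate into the matrix together with a proton, lies on the reverse strand of chromosome 11 at 790475 to 798333 in GRCh38. It was at 81.9, 71.6 and 87.2 FPKM in siCtrl and at 161, 178 and 179.7 FPKM in siANP32B. The lowest siANP32B sample was far above the highest siCtrl sample, and the gene rose 2.15-fold (log2 fold change 1.10, standard error 0.07, adjusted p = 1.03e-05). The log2 fold change stayed between 1.02 and 1.18 in all 14 alternatives. As the carrier with the largest rise, its upstream region is shown. This region is the 250 bases before the first listed RefSeq start (chr11:798282-798531 of GRCh38.p14, reverse strand). Both copies of the GC box (GGGCGG or its complement CCGCCC, a site for Sp1-type factors) are in capitals. The gene position given above reaches 798333, so by that annotation a part of this region lies inside the gene.
SLC25A22: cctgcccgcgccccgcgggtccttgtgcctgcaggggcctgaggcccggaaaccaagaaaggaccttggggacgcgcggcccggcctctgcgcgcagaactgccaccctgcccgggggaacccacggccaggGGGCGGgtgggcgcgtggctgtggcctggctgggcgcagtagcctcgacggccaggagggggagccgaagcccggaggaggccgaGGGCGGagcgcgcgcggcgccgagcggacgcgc
SLC25A44, a carrier of branched-chain amino acids, was at 24.5, 25.9 and 25.5 FPKM in siCtrl and at 32.4, 35.6 and 33.3 FPKM in siANP32B. It rose 1.33-fold (log2 fold change 0.40, standard error 0.06, adjusted p = 6.75e-04), with no overlap between the groups. The ornithine carrier SLC25A15, which links the matrix to the cytosolic steps of the urea cycle and of polyamine synthesis, rose from 16.5 ± 1.10 to 19.9 ± 0.841 FPKM (log2 fold change 0.26, adjusted p = 0.0207). This call was lost without siCtrl replicate 1 (log2 fold change 0.21), siANP32B replicate 2 (0.25) or siANP32B replicate 3 (0.23).
The aspartate/glutamate carriers belong to the malate-aspartate shuttle, which moves reducing equivalents of NADH into the matrix. Citrin, SLC25A13, was at 43.2 ± 2.58 and 48.8 ± 2.64 FPKM (adjusted p = 0.0509), and aralar, SLC25A12, at 26.4 ± 1.43 and 23.6 ± 0.872 FPKM (adjusted p = 0.0741). With median-of-ratios scaling, citrin was called higher at a log2 fold change of 0.24. The basic amino acid carrier SLC25A29 was at 80.0 ± 1.67 and 74.2 ± 1.30 FPKM (adjusted p = 0.0651). Without overlap of the groups, SLC25A12 and SLC25A29 were both lower at an unadjusted p under 0.05 (0.0323 and 0.0274 by limma). In the same way SLC25A13 was higher, at an unadjusted p of 0.0201 by limma. SLC25A38, the glycine carrier of heme synthesis, was at 55.6 ± 1.70 and 54.5 ± 2.32 FPKM, with a log2 difference whose 95% interval ran from -0.14 to 0.09.

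**Figure D3:**
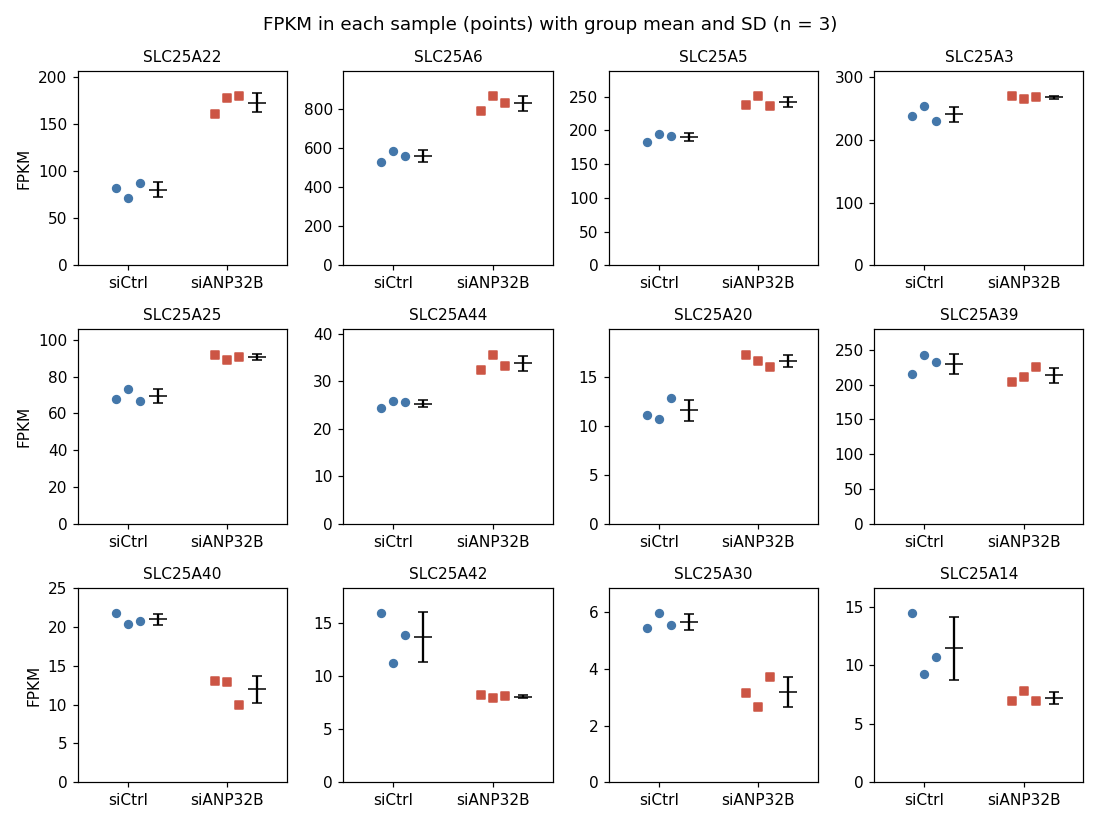
FPKM of 12 carriers in each of the 3 siCtrl samples (circles) and 3 siANP32B samples (squares), with the group mean and SD beside them and the axis starting at 0 in every panel. The panels were picked with the results known. The groups are separate in 11 panels, all of called carriers, where the call nearly fixes the separation. They overlap in that of SLC25A39, which was not called, at 215 to 243 against 204 to 225 FPKM. Among all tested genes, groups were separate in 19.3% (higher) and 31.8% (lower).

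Of 8 tested carriers of cofactors, 3 fell and none rose, also at an unadjusted p under 0.05. SLC25A40 (ENSG00000075303), a paralog of the glutathione carrier, had the largest fall of the 38 tested members and lies on the reverse strand of chromosome 7 at 87833568 to 87876357. It was at 21.7, 20.4 and 20.8 FPKM in siCtrl and at 13.05, 12.9 and 9.97 FPKM in siANP32B. All siANP32B samples were far below the siCtrl samples, and the gene was 1.75-fold lower (log2 fold change -0.77, standard error 0.10, adjusted p = 3.92e-04). DBF4, which encodes the activator of the replication kinase CDC7, is read in the opposite direction and overlaps an exon of SLC25A40. It was at 38.8, 36.8 and 39.9 FPKM in siCtrl and at 27.1, 25.3 and 25.6 FPKM in siANP32B, and it was also called lower (adjusted p = 1.04e-04). Since these genes start beside each other and run apart, the 250 bases before the SLC25A40 start are shown, with the GC boxes in capitals (chr7:87876361-87876610 of GRCh38.p14, reverse strand). As the exons of the genes overlap, these bases may lie inside DBF4 and need not be a stretch between the genes.
SLC25A40: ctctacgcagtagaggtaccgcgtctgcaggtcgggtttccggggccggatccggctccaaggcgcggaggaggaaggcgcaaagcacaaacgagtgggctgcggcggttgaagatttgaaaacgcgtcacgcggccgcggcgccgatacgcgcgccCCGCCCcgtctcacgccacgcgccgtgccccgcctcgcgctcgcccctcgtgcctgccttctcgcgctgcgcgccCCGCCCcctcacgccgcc
The glutathione carrier SLC25A39 itself was at 215, 243 and 233 FPKM in siCtrl and at 204, 211 and 225 FPKM in siANP32B. The groups overlapped, and the log2 fold change of -0.11 had a 95% interval from -0.23 to 0.02 (adjusted p = 0.152), although it was called lower when siCtrl replicate 1 was left out (log2 fold change -0.16, adjusted p = 0.0473). SLC25A42, which imports coenzyme A in exchange for adenine nucleotides, was at 15.9, 11.2 and 13.9 FPKM in siCtrl and at 8.17, 7.90 and 8.11 FPKM in siANP32B. The siCtrl samples varied, but all exceeded the narrow band of the siANP32B samples (1.70-fold lower, log2 fold change -0.68, standard error 0.12, adjusted p = 0.00165).
The peroxisomal carrier SLC25A17 was at 24.8 ± 1.57 and 21.0 ± 1.92 FPKM (log2 fold change -0.23, adjusted p = 0.0471). It was called in 3 of 14 alternatives, was not called with median-of-ratios scaling (log2 fold change -0.16), and lost its call without each siCtrl sample (log2 fold changes -0.27 without replicate 1, -0.24 without replicate 2 and -0.18 without replicate 3) and without siANP32B replicate 2 (-0.16) or 3 (-0.24). SLC25A16, linked to coenzyme A, was at 22.4 ± 0.528 and 20.4 ± 0.497 FPKM and was not called. The NAD+ carrier SLC25A51 (14.2 ± 1.604 and 12.9 ± 0.935 FPKM) and the S-adenosylmethionine carrier SLC25A26 (10.3 ± 1.602 and 10.2 ± 0.644 FPKM) were not called either. The 95% interval of the log2 fold change of SLC25A26 ran from -0.26 to 0.24. LRIG1, opposite to it and overlapping its exons, fell from 7.40 ± 0.580 to 4.40 ± 0.665 FPKM.

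The relatives of the uncoupling proteins had negative log2 fold changes in all 3 tested members, and 2 of them were called. Uncoupling proteins let protons return to the matrix without ATP synthesis, but the roles of these 3 relatives are less settled. SLC25A30 was at 5.45, 5.97 and 5.56 FPKM in siCtrl and at 3.16, 2.67 and 3.72 FPKM in siANP32B. It was 1.78-fold lower with a wide gap between the groups (log2 fold change -0.68, standard error 0.13, adjusted p = 0.00310), but was not called with siCtrl replicate 1 as the only control (log2 fold change -0.63, adjusted p = 0.0771). SLC25A14, also named UCP5, was at 14.5, 9.23 and 10.7 FPKM in siCtrl and at 6.93, 7.82 and 6.93 FPKM in siANP32B. Here siCtrl replicate 1 stood above the other controls, yet all siCtrl samples were above all siANP32B samples (log2 fold change -0.58, standard error 0.14, adjusted p = 0.0114). The call was lost only when no filter on low values was used. SLC25A27, or UCP4, was at 15.7, 10.7 and 14.5 FPKM in siCtrl and at 10.3, 11.1 and 8.94 FPKM in siANP32B, with overlapping groups (adjusted p = 0.0526). Without siCtrl replicate 2, the lowest control, it was called lower.
In the remaining carriers, 2 of 4 tested members fell. SLC25A35, whose substrate is not firmly known, was at 6.70, 7.55 and 5.23 FPKM in siCtrl and at 4.16, 3.43 and 4.34 FPKM in siANP32B. It was 1.63-fold lower without overlap (log2 fold change -0.58, standard error 0.14, adjusted p = 0.0116). That call was lost with siCtrl replicate 1 as the only control (log2 fold change -0.63, adjusted p = 0.0535) and without the filter. SLC25A46 of the outer mitochondrial membrane, which takes part in mitochondrial fission and lipid transfer, fell from 40.2 ± 1.08 to 32.6 ± 1.24 FPKM (adjusted p = 0.00225, log2 fold change -0.29), and was called in all 14 alternatives. SLC25A43 and SLC25A45 had log2 fold changes of 0.13 and -0.08 and were not called. With a sample left out, these ranged from 0.053 (without siANP32B replicate 3) to 0.18 and from -0.14 to -0.0075 (without siANP32B replicate 1).

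The balance between related carriers was compared within each sample, as the ratio of their FPKM values, for 8 pairs of paralogs. The ratio of SLC25A6 to SLC25A4 went from 20.4, 24.5 and 23.5 in siCtrl to 36.1, 38.3 and 40.5 in siANP32B, and that of SLC25A6 to SLC25A5 from 2.89, 3.01 and 2.94 to 3.32, 3.45 and 3.50. Citrin over aralar was 1.56, 1.82 and 1.54 in siCtrl and 2.21, 2.15 and 1.87 in siANP32B. Mitoferrin 1 over mitoferrin 2 was 1.93, 2.04 and 2.13 in siCtrl and 3.08, 2.63 and 2.42 in siANP32B. The ratio of SLC25A40 to SLC25A39 was lower in siANP32B, at 0.0639, 0.0612 and 0.0443 against 0.101, 0.0839 and 0.0893. The pairs were chosen with results known and share members, since SLC25A6 and SLC25A25 each stand in 2 of them. In 7 of the 8 pairs the ratios of the groups did not overlap, each with p = 0.10 in an exact two-sided permutation test, the smallest that these samples allow, and an adjusted p of 0.114 over the 8 pairs. Among single genes, groups without overlap were already common, at 19.3% (higher) and 31.8% (lower). The pair of SLC25A25 and SLC25A23 overlapped (exact p = 0.20). Ratios within a sample do not depend on the scaling of that sample, but they do not show which gene of a pair changed.

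**Figure D4:**
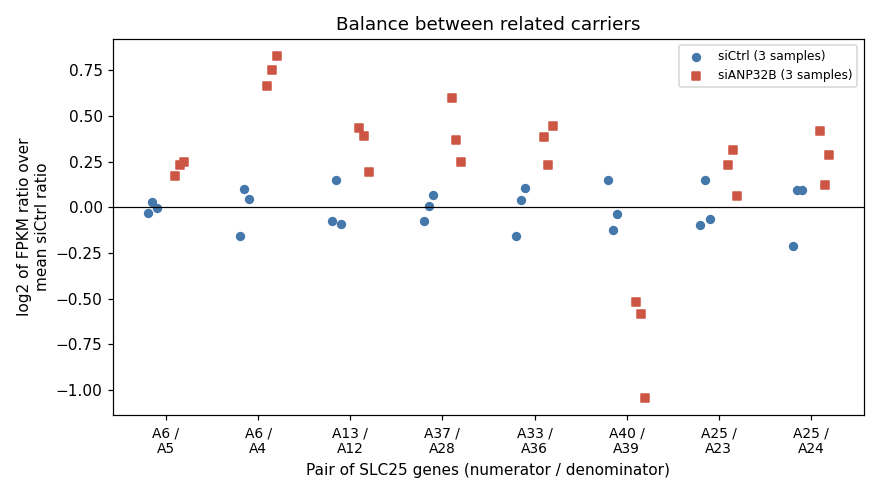
Ratio of FPKM values of 8 pairs of paralogous carriers in each sample, as log2 relative to the mean siCtrl ratio (circles: 3 siCtrl samples, squares: 3 siANP32B samples). The siANP32B points of the SLC25A6 to SLC25A4 ratio lie highest and those of the SLC25A40 to SLC25A39 ratio lowest, and only the SLC25A25 to SLC25A23 pair overlaps.

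Sequence features of the promoters were read from RefSeq windows of 250 bases before to 50 bases after the first listed start, which were found for 33 of the 38 tested carriers and for 27305 genes in all. The carriers were limited to a mean of at least 1 FPKM, but the 27305 genes were not. The shares of all promoters given here therefore come from an unlike set, and shares among expressed genes were not taken. Searched on both strands, the GC box GGGCGG was in 24 of the 33 carrier promoters (72.7%), against 44.6% of all promoters, and in 8 carriers that rose, 4 that fell and 12 not called. The E-box CACGTG, a site for MYC and related factors that reads the same on both strands, was in 6 of the 33 (18.2%), against 7.43% of all promoters. Of the called carriers, SLC25A37 (higher), SLC25A30 and SLC25A35 (both lower) had no window and were not searched. Among those searched, the E-box was in none of the 9 that rose and in 2 of the 6 that fell, and 4 carriers with it were not called. The palindromic NRF1 motif was in none of the 33 and in 1.36% of all promoters. These letters do not show that a factor binds. To show where the E-box sits, 30 bases around it are given for its 6 carriers, on the strand of each gene and with the E-box in capitals.
SLC25A13: gcgcagcggggtCACGTGtccctgtccagc
SLC25A33: tccggcccccgcCACGTGacggccgcgcgc
SLC25A36: gcccgtagggatCACGTGaaagaacactgc
SLC25A38: tcagaacaccctCACGTGacaagcgtccca
SLC25A46: agaggctataatCACGTGctccgaagactt
SLC25A51: cggtgtctccctCACGTGaccccaacagcg
The E-box began 154 bases before the start in SLC25A13 (chr7:96322235-96322264), 26 bases in SLC25A33 (chr1:9539427-9539456), 143 bases in SLC25A36 (chr3:140941681-140941710), 44 bases in SLC25A38 (chr3:39383314-39383343), 47 bases in SLC25A46 (chr5:110738948-110738977) and 59 bases in SLC25A51 (chr9:37904169-37904198), all in GRCh38.p14. SLC25A13 and SLC25A51 are on the reverse strand and the other 4 on the forward strand. These distances count from the first listed RefSeq start. The GENCODE gene positions begin at 39383324 for SLC25A38, at 110738136 for SLC25A46 and, on the reverse strand, at 37904353 for SLC25A51. By those positions, the E-boxes of SLC25A38, SLC25A46 and SLC25A51 lie inside the gene, so the annotations differ on whether they are upstream. Of the 6 carriers with the E-box, SLC25A36 and SLC25A46 were called lower, as given above.

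Genes around the carriers were described by 5 lists, whose counts stand against 14.6% higher and 24.6% lower among all tested genes. Of the 5 family members with other names, UCP2, MTCH1 and MTCH2 were tested and none was called by limma or at an unadjusted p under 0.05, while UCP1 and UCP3 were under 1 FPKM. The TIM22 route brings carriers from the cytosol through the outer membrane and inserts them into the inner membrane, and 6 of its 13 members rose while none fell, also at an unadjusted p under 0.05 (median log2 fold change 0.17, against -0.06 for all tested genes). TOMM22, a receptor subunit of the outer membrane translocase, rose from 36.6 ± 1.04 to 66.3 ± 1.87 FPKM (log2 fold change 0.84, adjusted p = 5.35e-06), the small chaperone TIMM8B from 30.3 ± 3.38 to 53.8 ± 7.11 FPKM and TIMM13, its relative, from 42.4 ± 2.85 to 55.2 ± 5.22 FPKM. TIMM22, the channel itself, was at 7.44 ± 0.430 and 8.23 ± 0.608 FPKM and was not called (named after its values were seen).
Of 21 other mitochondrial solute transporters, 5 rose and 7 fell (median log2 fold change -0.05). LETM1, a cation exchanger, rose from 64.1 ± 1.11 to 92.3 ± 4.51 FPKM and the sideroflexin SFXN2 from 11.4 ± 0.733 to 18.6 ± 2.27 FPKM, while MPC2 of the pyruvate carrier fell from 9.31 ± 1.36 to 4.95 ± 0.212 FPKM. Of 10 tested enzymes that work with the malate-aspartate shuttle and citrate export, 2 rose and 1 fell (median log2 fold change -0.05). Citrate synthase, CS, rose from 212 ± 10.8 to 281 ± 2.82 FPKM. GOT1, the cytosolic aspartate aminotransferase, fell from 104 ± 12.7 to 87.7 ± 4.34 FPKM, a call that was lost in most alternatives, among them those without siCtrl replicate 2 and without each siANP32B replicate, where no member of this list was lower. Of 14 tested genes of heme and iron-sulfur synthesis, 3 rose and 3 fell (median log2 fold change 0.06). CPOX and ALAS1, enzymes of heme synthesis, fell from 27.4 ± 2.44 to 18.9 ± 1.34 FPKM and from 77.2 ± 2.24 to 65.8 ± 0.997 FPKM, and LYRM4, a part of the complex that releases sulfur for iron-sulfur clusters, rose from 17.1 ± 1.04 to 25.4 ± 4.03 FPKM.

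**Figure D5:**
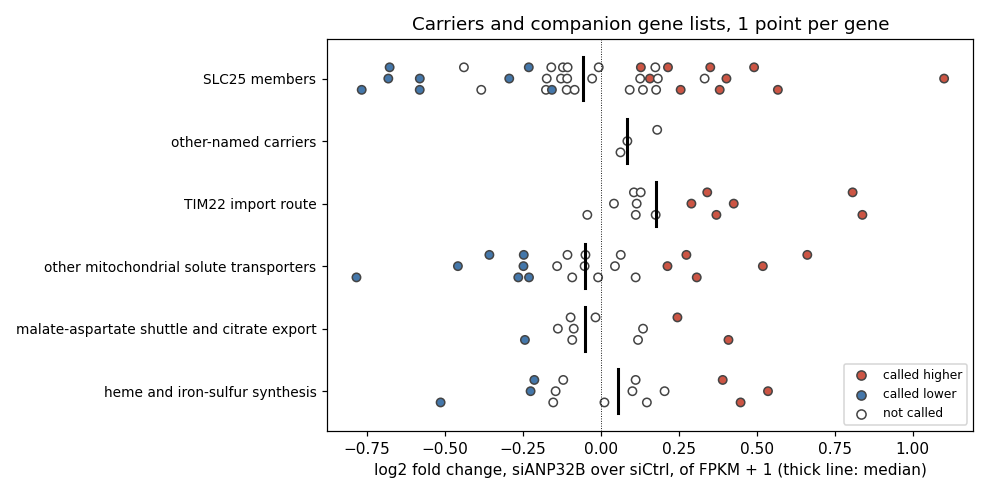
Log2 fold change of FPKM + 1 between siANP32B and siCtrl, 1 point per tested gene, for the carriers and 5 companion lists (filled: called at an adjusted p under 0.05 from limma, thick line: median). The carriers spread from -0.77 to 1.10 around a median of -0.06, and the 13 genes of the TIM22 route have no call to the left of 0.

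The 10 members under 1 FPKM were not tested. SLC25A41, SLC25A53, SLC25A18 and SLC25A32 had means of 0.828, 0.809, 0.405 and 0.331 FPKM, and SLC25A2, SLC25A34, SLC25A47, SLC25A52, SLC25A48 and SLC25A31 of 0.0125 to 0.0476 FPKM, with 0 in at least 1 sample each. SLC25A31 is the ADP/ATP carrier of the testis. SLC25A32, the carrier of folate and FAD, was at 0.295, 0.392 and 0.215 FPKM in siCtrl and at 0.314, 0.353 and 0.417 FPKM in siANP32B. Its exons overlap DCAF13 on the opposite strand, which was at 79.0 ± 4.04 and 106 ± 4.40 FPKM, so this low level may be affected by how overlapping reads were assigned, which was not tested. Pseudogenes of 15 members had 43 entries of their own, with at most 0.555 FPKM summed per member (SLC25A5), and reads that they share with their parent genes cannot be resolved from these values.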

How the data were processed

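Total RNA of 3 siCtrl and 3 siANP32B samples of RKO cells was sequenced, and 1 value per gene and sample was deposited by the authors. Per the labels, Bowtie2, RSEM, DESeq2 and GRCh38 were used. Their versions, the annotation release and the use of strand are not stated in the sources used here. The headers name no unit. The authors' values were taken as FPKM. Times the GENCODE 29 exon length, 53.1% to 56.1% of the low values of a sample fell within 0.02 of a whole multiple of 1 step per sample. Any measure of counts over length with 1 constant per sample gives such steps, so they do not settle the unit. Whole fragments over a fixed length are not what the estimated counts and effective lengths of RSEM give, so the tool behind the values, and its handling of shared reads, is not known. If the unit is FPKM, the step of each sample gives its depth, at 14304093 to 18987041 fragments. Fragments of single genes are the smallest whole numbers that the values allow (tolerance 0.002).

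The 13945 genes averaging 1 FPKM or more were compared on the log2(FPKM + 1) scale with limma 3.58.1 in R 4.3.3, with a variance trend, without a block and adjusted over all genes. Fold changes of low genes are understated on this scale, and folds in the text are ratios of group means. Python 3.11.15 with pandas 2.3.3 and scipy 1.17.1 made the tables, and the fit was tested on simulated data. Promoters are from RefSeq (GRCh38.p14), gene positions from GENCODE 29.

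The tested members are named by substrate group, except 1 member that is not reported here, as is 1 gene of the companion lists. Both remain in the counts. Values of every sample are given for called members without overlap that moved by 0.3 or more on the log2 scale, and for the 5 highest members; some others were added. From each companion list, up to 3 called genes with the smallest p are named. Members, lists and paralog pairs were chosen with earlier results of these data known. The alternatives were a pseudocount of 0.1, no filter, a minimum of 5 FPKM, median-of-ratios and upper-quartile scaling, no trend, a replicate block, siCtrl replicate 1 as the only control (assumed to vary like the siANP32B samples) and each sample left out.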

Additional observations from a re-analysis of the deposited data

How the results depend on the processing

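Of the 18 called carriers, 9 were called in all 14 alternatives (SLC25A5, SLC25A6, SLC25A20, SLC25A22, SLC25A25, SLC25A40, SLC25A42, SLC25A44 and SLC25A46), 9 lost their call in at least 1, and none changed direction. Another 7 carriers were called in at least 1 alternative. With siCtrl replicate 1 as the only control, 1209 genes were higher and 1899 lower, with 5 lower carriers, and 5 carriers were also lower without a filter. Among all genes, 2657 of 29755 were lower without a filter. With each sample left out in turn, 8 to 10 carriers were higher and 6 to 8 lower, against 1667 to 1755 and 2755 to 3052 of the 13945 tested genes. Among family members with other names, 1 was higher with median-of-ratios scaling, 2 with upper-quartile scaling and 1 with the single control. Of the other solute transporters, 4 were lower with the single control. Of the shuttle and citrate enzymes, 4 were higher with median-of-ratios scaling, 4 with upper-quartile scaling, 4 at a minimum of 5 FPKM and 1 with the single control. In that list 0 were lower without a filter, with either scaling, without the trend, with the replicate block or with the single control, and 0 to 1 when a sample was left out. Of the heme and iron-sulfur genes, 6 were higher with median-of-ratios scaling, 5 with upper-quartile scaling and 1 with the single control, where 1 was lower. The cause of these shifts was not tested.

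Log2 fold changes near 0 changed sign for 3 carriers that were not called. SLC25A38 was at 0.041 with median-of-ratios scaling, 0.045 with upper-quartile scaling and 0.022 with the single control. SLC25A26 was at 0.057, 0.060 and 0.14 in the same fits and at -0.083 to 0.11 when a sample was left out. SLC25A24 was at -0.07 with the single control. With the replicate number as a block, 10 carriers were higher and 7 lower, and 2006 genes were higher and 3310 lower. No pairing by the shared numbers was seen. Deviations of samples with the same number correlated at 0.02, -0.01 and -0.003, and not every sample correlated best with its own number. With 3 samples per group, this cannot exclude a pairing. Genes near 1 FPKM rest on few fragments, which limits what can be seen for SLC25A10 and SLC25A21.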
